A study of Mus musculus with 3 samples.

Results

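Spi1, Maf, Cebpa, Cebpb, Cebpd, Runx1, Tfec and Ets2 encode 8 transcription factors of the macrophage lineage, and their RNA was measured in the cytosol of Lipid A-exposed mouse macrophages. The genes were chosen by symbol, with no threshold on a measured value, and were 8 of 55536 annotated genes. Total RNA depleted of ribosomal RNA was sequenced from macrophages grown from C57BL/6J bone marrow. All 3 libraries had the same treatment: 100 ng/ml Lipid A, the part of lipopolysaccharide that TLR4 recognises, for 12 h, then 12 h after washout, then 100 ng/ml Lipid A again for 90 min. They are labelled as biological replicates 1, 2 and 3 but share 1 donor record, so spreads and p-values measure variation between these samples only, which may be technical. Sex and age were not collected. Unexposed cells were not analysed here, so every value is a level and not a response to Lipid A.

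PU.1, the product of Spi1, is an ETS-family factor that opens and occupies macrophage enhancers, where it acts together with C/EBP and RUNX proteins. C/EBP proteins pair through a leucine zipper, and their balance shifts as progenitors become macrophages and as macrophages meet bacterial products. In differentiated macrophages MAF-family factors, Tfec and Ets2 act on top of this base, on genes such as those for complement C1q, interleukin 10 and the receptor for colony-stimulating factor 1.

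The libraries held 40637857, 70407572 and 49678390 expected counts in annotated genes in replicates 1, 2 and 3. All 8 macrophage markers were detected, which means at least 1 TPM (transcript abundance corrected for length and library size) in all 3 libraries, with summed levels of 4938 to 5794 TPM. Of the 10 markers of neutrophils and their precursors none reached 1 TPM in all 3 libraries, the summed level was 1.95 to 2.39 TPM, and Ly6g and Retnlg had 0 counts in every library. None of 5 B-cell, 6 T- and NK-cell, 6 erythroid and megakaryocyte, 5 dendritic-cell, 4 mast-cell and basophil or 5 stromal and endothelial markers was detected either, and no such list summed to more than 1.08 TPM in a library. In bulk RNA, fewer cells of a type and less RNA per cell cannot be told apart.

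Promoter sequence upstream of the annotated start was read from the RefSeq table of build GRCm38.p6, which held 5 of the 8 genes. The windows shown are those of Cebpb and Tfec, the 2 genes whose RNA varied between libraries beyond the trend, and of the distal and proximal starts of Runx1, which the transcript tables separate. Each reads 5′ to 3′ on the gene's own strand and ends at the base before the start, and the distal Runx1 window was shortened to leave out annotated exon. Capitals mark matches to the searched motifs.
Cebpb, chr2:167688665-167688914, plus strand: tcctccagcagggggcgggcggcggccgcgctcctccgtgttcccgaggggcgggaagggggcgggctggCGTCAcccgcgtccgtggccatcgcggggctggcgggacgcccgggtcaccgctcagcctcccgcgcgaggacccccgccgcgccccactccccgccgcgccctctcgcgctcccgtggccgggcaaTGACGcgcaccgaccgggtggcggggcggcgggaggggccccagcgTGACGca
Tfec, chr6:16898442-16898691, minus strand: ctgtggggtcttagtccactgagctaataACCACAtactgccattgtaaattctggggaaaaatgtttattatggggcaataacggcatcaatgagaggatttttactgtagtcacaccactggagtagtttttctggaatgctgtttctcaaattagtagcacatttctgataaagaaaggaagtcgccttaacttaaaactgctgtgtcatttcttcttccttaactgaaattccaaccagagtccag
Runx1 distal start, chr16:92826150-92826324, minus strand: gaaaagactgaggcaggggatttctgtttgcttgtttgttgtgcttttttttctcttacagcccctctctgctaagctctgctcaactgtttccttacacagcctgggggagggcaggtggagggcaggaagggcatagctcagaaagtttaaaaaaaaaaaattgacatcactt
Runx1 proximal start, chr16:92697330-92697579, minus strand: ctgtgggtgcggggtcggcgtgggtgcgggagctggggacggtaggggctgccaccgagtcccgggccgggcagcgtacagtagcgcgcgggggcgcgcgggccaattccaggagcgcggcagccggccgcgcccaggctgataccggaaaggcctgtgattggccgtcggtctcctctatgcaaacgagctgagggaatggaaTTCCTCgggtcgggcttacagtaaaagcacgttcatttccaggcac

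In these windows 4 patterns were searched on both strands: TTGCNNAA for C/EBP, GAGGAA for the ETS core of PU.1 sites, TGTGGT for RUNX and TGACG, the core of the cAMP response element. The Cebpb window, with a GC content of 81.6%, held TGACG 3 times, at 180, 53 and 7 bases before the start. TGACG occurred in 17.7% of 32817 promoter windows of 250 bases. The Tfec window, at 39.2% GC, held 1 match to TGTGGT, read as ACCACA 221 bases before the start, a pattern present in 14% of windows. The proximal Runx1 window, at 67.6% GC, held 1 match to GAGGAA, read as TTCCTC 46 bases before the start and present in 23.3% of windows. The distal Runx1 window, at 45.1% GC and 175 bases long, held no match, and neither did that of Cebpa. TTGCNNAA, found in 9.57% of windows, was in none of these 5. A match is a match of letters and no evidence of binding.

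Each of the 8 genes passed the detection limit, and 6 reached 10 TPM in every library. Their mean levels had a median of 20.45 TPM, beside 8.505 TPM over the 8838 detected protein-coding genes, and 6 of the 8 lay above that median. From highest to lowest mean TPM the order was Spi1, Maf, Cebpb, Tfec, Ets2, Runx1, Cebpa and Cebpd. Their TPM summed to 300.1, 248.4 and 237.4 in replicates 1, 2 and 3, and Spi1 made up 39.6, 43.5 and 43.1% of it. Nuclear protein-coding genes held 33.15, 29.55 and 27.96% of all TPM in these libraries, falling in the same order. Rescaled over those genes, Spi1 stood at 358.8, 365.6 and 365.6. The part of this share in the sums was not tested. The level depends on the table: the second transcript table, made directly from the reads, gave 66.8 ± 6.02 TPM for Spi1, 32.6 ± 2.99 for Maf, 16.7 ± 8.78 for Cebpb and 13.04 ± 5.30 for Tfec, in the same order of 8. With both tables rescaled over nuclear protein-coding genes the gap was smaller relative to the level. It was 363 against 395 for Spi1, 189 against 196 for Maf, 102 against 98.4 for Cebpb and 73.5 against 75.7 for Tfec (gene table against second table). For Spi1 (363 ± 3.9 against 395 ± 1.9) and Runx1 (40.5 ± 0.21 against 48.2 ± 0.94) it still exceeded the SD between libraries. Levels below are TPM of the gene table, given for replicates 1, 2 and 3 in that order, with mean ± SD (n = 3).

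**Figure D1:**
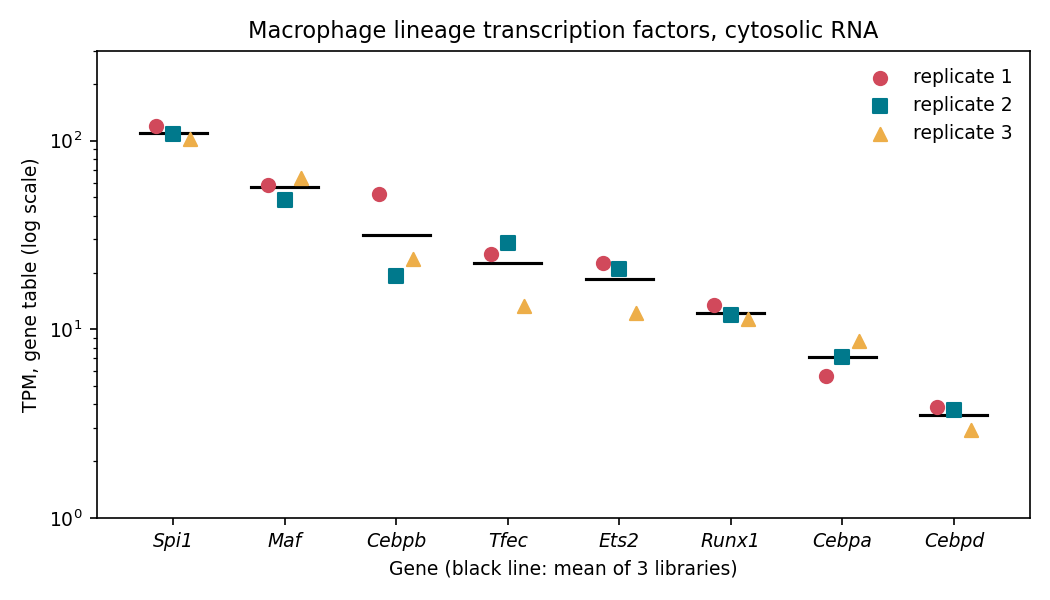
TPM of each gene (vertical log axis) in replicates 1, 2 and 3 (circles, squares, triangles), with the mean of 3 libraries as a black line. Spi1 leads at 102 to 119 TPM, Cebpd is lowest at 2.92 to 3.85 TPM, and Cebpb has the widest spread, 19.2 to 52.1 TPM.

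Spi1 (ENSMUSG00000002111.8, chr2:91082390-91115756 in mm10, plus strand) stood at 119, 108 and 102 TPM, with a mean of 109.7 ± 8.49. Of the detected protein-coding genes, 94.9% had a lower mean. The 3 libraries lay close together, with a coefficient of variation of 7.74%. The median coefficient was 10.07% over the detected protein-coding genes and 17.8% over the lineage factors. Ets2 (ENSMUSG00000022895.16, chr16:95702075-95721051, plus strand), an ETS factor phosphorylated downstream of MAP kinases, measured 22.5, 20.9 and 12.2 TPM (mean 18.5 ± 5.54). Replicates 1 and 2 were alike and replicate 3 was low.

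Cebpb (ENSMUSG00000056501.3, chr2:167688915-167690418, plus strand), the C/EBP factor of macrophage activation, measured 52.1, 19.2 and 23.5 TPM (mean 31.6 ± 17.9). Replicate 1 was high, and the highest value was 2.71 times the lowest. Cebpa (ENSMUSG00000034957.10, chr7:35119293-35121928, plus strand), which drives the step from multipotent to granulocyte and macrophage progenitors, measured 5.63, 7.12 and 8.63 TPM (mean 7.13 ± 1.5). Here replicate 1 was lowest and replicate 3 highest. Cebpd (ENSMUSG00000071637.5, chr16:15887286-15891031, plus strand), known as an early gene of the response to lipopolysaccharide, measured 3.85, 3.75 and 2.92 TPM (mean 3.51 ± 0.511). It was the lowest of the 8, with 23.3% of detected protein-coding genes below it.

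Maf (ENSMUSG00000055435.6, chr8:115682942-115707794, minus strand), a leucine-zipper factor that activates Il10 and the C1q genes, measured 58.5, 48.8 and 63.3 TPM (mean 56.9 ± 7.39). It ranked 860 of 8838 detected protein-coding genes, with replicate 2 lowest. Runx1 (ENSMUSG00000022952.17, chr16:92601466-92826149, minus strand), which is required for the first definitive blood stem cells, measured 13.4, 11.9 and 11.4 TPM (mean 12.2 ± 1.04). Its coefficient of variation was 8.52%, near that of Spi1 and not far under the median of 10.07% over detected protein-coding genes. Tfec (ENSMUSG00000029553.10, chr6:16833373-16898441, minus strand), the member of the MiT-TFE family found mainly in macrophages, measured 25.2, 28.7 and 13.3 TPM (mean 22.4 ± 8.11). As with Ets2, replicate 3 was the low library.

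Neighbours in the order were compared by the log2 ratio of their TPM within each library, and were said to differ beyond their spread where the ratio had 1 sign in 3 of 3 libraries and its mean was over 2 SD. Of 7 neighbouring pairs, 1 did: Spi1 exceeded Maf by 1.02, 1.15 and 0.69, a mean of 0.95 ± 0.24. That pair rests on the length correction, since on CPM, counts scaled to the library total with no regard to length, Maf, the longer RNA, was higher and the mean ratio was -1.03. Maf exceeded Cebpb in every library, by 0.17, 1.35 and 1.43 (mean 0.98 ± 0.71), but the difference lay within its spread and was smallest in replicate 1, where Cebpb was high. Cebpb and Tfec changed places, at 1.05, -0.58 and 0.83. The ratios of Tfec to Ets2 (0.25 ± 0.18), Ets2 to Runx1 (0.55 ± 0.39), Runx1 to Cebpa (0.80 ± 0.43) and Cebpa to Cebpd (1.01 ± 0.51) were positive in 3 of 3 libraries and within 2 SD. The order was set by the mean TPM of these same libraries. Positive mean ratios were therefore nearly fixed in advance and are no separate support for the order. On CPM the mean ratio of Tfec to Ets2 was -0.98. A permutation test was not used, since 3 libraries allow no p below 0.25.

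Variation between the libraries was then tested against the variation usual for a gene of the same abundance, with edgeR's mean-dispersion trend over 12256 genes. Of these, 240 (1.96%) varied beyond the trend at an adjusted p under 0.05, and of the 8 lineage factors 2 did, Cebpb and Tfec. Unadjusted, 843 of the 12256 genes and 4 of the 8 had p under 0.05. Values between libraries are given here as TMM-scaled CPM.

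Cebpb stood at 105, 40.7 and 52.0 CPM in replicates 1, 2 and 3, a range of 2.58-fold. Replicate 1 stood apart from the other two libraries. The biological coefficient of variation of Cebpb, a value that edgeR moderates toward the trend, was 31.5% against a trend of 13.1% (edgeR adjusted p = 6.63e-05, 6.37e-05 to 0.9999 over the alternatives). The test itself did not use this moderated value. Without replicate 1 the adjusted p was 0.9999, and without replicate 2 it was 0.0713. Tfec stood at 62.1, 74.3 and 35.7 CPM, with replicate 3 low and a range of 2.08-fold. Its coefficient was 23.7% against 13.1% (edgeR adjusted p = 0.0345, 0.00202 to 0.9997 over the alternatives). The Tfec call was lost with a common dispersion (0.188), with DESeq2's trend (0.0556), with the counts of the second transcript table (0.0529), without replicate 2 (0.339) and without replicate 3 (0.9997).

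Both were called with DESeq2 size factors (1.98% of all genes called), without scaling beyond library totals (1.52%) and without a filter on low counts (1.25%). Cebpb alone of the 8 was called with a common dispersion (2.49% of all genes), with DESeq2's trend (1.83%), with the second table's counts (1.72%) and without replicate 3 (0.654%). Tfec alone was called without replicate 1 (0.932%), and neither without replicate 2 (0.828%).

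Ets2 (131, 126 and 77.1 CPM) and Cebpa (20.8, 26.0 and 35.1 CPM) had unadjusted p of 0.0131 and 0.0226 and did not pass (edgeR adjusted p = 0.313 and 0.446). Ets2 was low in replicate 3, as Tfec was, while Cebpa was highest there. Maf (516, 441 and 618 CPM) had a moderated coefficient near its trend, 16.9% against 16.4%. Cebpd (21.2, 21.8 and 17.9 CPM), Spi1 (263, 254 and 248 CPM) and Runx1 (97.2, 89.9 and 90.4 CPM) lay under their trends. By range Spi1 and Runx1, at 1.06- and 1.08-fold, were the steadiest of the 8, and the 3 C/EBP genes ran from 1.22-fold for Cebpd to 2.58-fold for Cebpb.

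**Figure D2:**
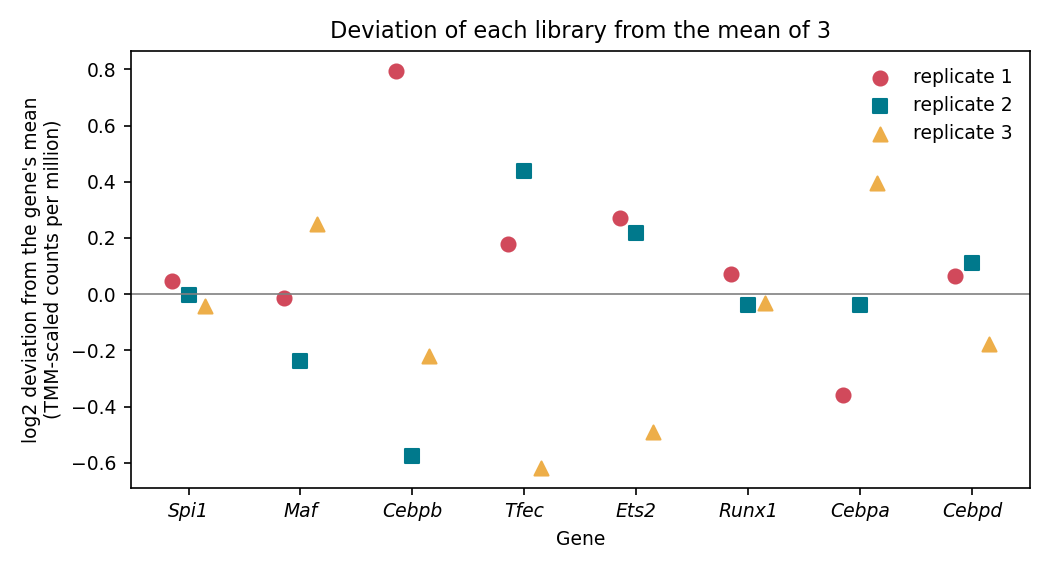
Deviation of each library from the gene's mean, as log2 of TMM-scaled CPM, in replicates 1, 2 and 3 (circles, squares, triangles). Cebpb is set apart by replicate 1, Tfec and Ets2 by replicate 3, and the Spi1 and Runx1 points almost coincide.

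**Figure D3:**
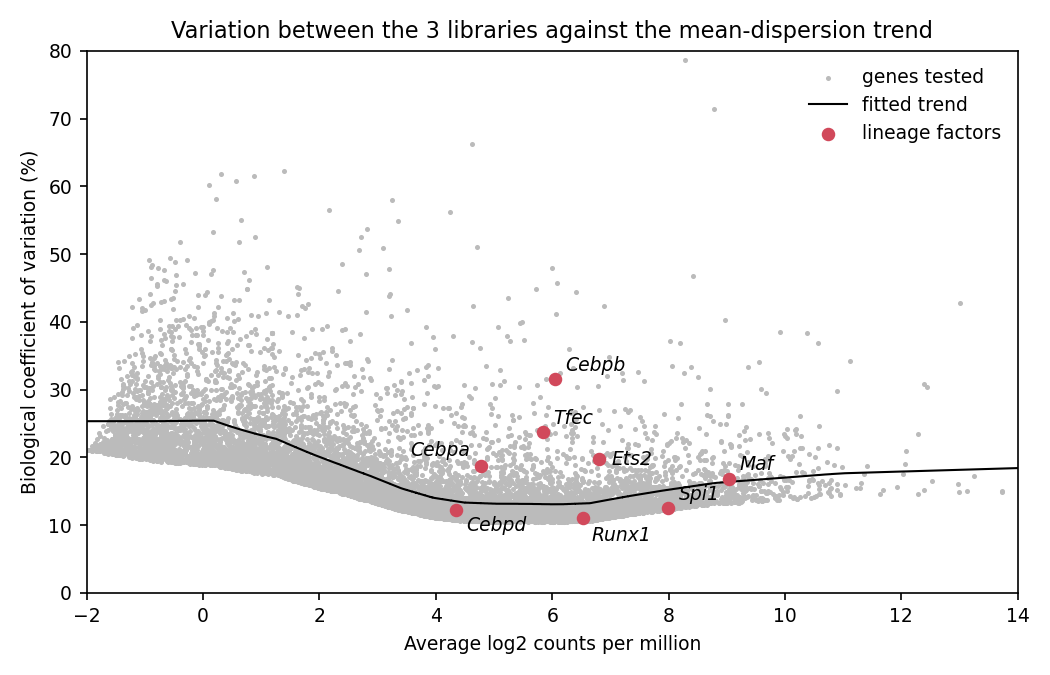
Biological coefficient of variation between the 3 libraries (percent, moderated by edgeR toward the trend) against average log2 CPM for the genes tested (grey), with the fitted trend (line) and the 8 lineage factors (red). Cebpb at 31.5% and Tfec at 23.7% lie farthest above the trend among the 8, and 2 genes above the axis and 3 outside its width are not drawn.

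The C/EBP genes were also compared as a family, because their proteins pair with one another. Of the summed TPM of Cebpa, Cebpb, Cebpd, Cebpg and Cebpe, Cebpb took 73.8, 50.9 and 58.1% (mean 60.9 ± 11.7). By TPM it was the largest of these shares in 3 of 3 libraries. Ddit3 is not in this sum, and an entry of that symbol stood above Cebpb in each library. Cebpa took 7.98, 18.9 and 21.4% (mean 16.1 ± 7.11), and Cebpd 5.46, 9.94 and 7.22% (mean 7.54 ± 2.26). Cebpg, a partner that lacks an activation domain, took 15.3 ± 4.22%, and Cebpe, the factor of late granulocyte maturation, 0.115 ± 0.0168%. The log2 ratio of Cebpb to Cebpa was 3.21, 1.43 and 1.45 (mean 2.03 ± 1.02), positive in 3 of 3 libraries and just short of 2 SD. Cebpb exceeded Cebpd beyond the spread (3.04 ± 0.70), and Cebpg as well (2.01 ± 0.62). On CPM the mean ratio of Cebpb to Cebpg was 0.31, and in replicate 2 Cebpg had 3586 counts beside 2914 for Cebpb. On the list of C/EBP relatives and regulators, which leaves out Ddit3 because 2 gene entries carry that symbol (one at 139, 113 and 86.3 TPM), 6 of 8 genes were detected. Cop1 (18.6 ± 3.05 TPM), a ubiquitin ligase, and Trib1 (12.2 ± 1.54 TPM), which brings C/EBP-alpha to it, were the highest of these 8, followed by Trib3 (11.6 ± 4.03 TPM). Cebpe (0.0567 ± 0.0208 TPM) and Trib2 (mean 0.00667 TPM) were the lowest.

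In the ETS family 14 of 17 other genes were detected. Etv3, a repressor, was the highest at 92.0, 53.5 and 52.4 TPM (mean 65.98 ± 22.6), with replicate 1 high, as for Cebpb. Fli1 (22.8 ± 1.93 TPM) and Elf1 (20.97 ± 3.49 TPM) followed. Ets2 had a log2 ratio of -1.83 ± 0.41 to Etv3 and of 6.47 ± 0.26 to Ets1, the lymphoid relative, which stood at 0.210 ± 0.0700 TPM. Spi1 exceeded Spib, its B-cell and plasmacytoid relative (0.180 ± 0.0608 TPM), by 9.30 ± 0.55, and Elf1 by 2.40 ± 0.14. Erg had 0 counts, which allows up to 0.0258 TPM.

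Among MAF and BACH genes 5 of 8 were detected, led by Bach1 (16.5 ± 5.07 TPM), which represses haem and antioxidant genes, and Maff (16.2 ± 3.87 TPM), a small MAF without an activation domain. Nfe2 and Bach2 averaged 0.270 and 0.0333 TPM, and Nrl, the MAF of photoreceptors, had 0 counts (limit 0.0272 TPM). Of 7 RUNX relatives and cofactors 3 were detected, namely Cbfb (15.4 ± 1.66 TPM), the partner that stabilises RUNX proteins on DNA, Tle3 (10.3 ± 1.60 TPM) and Cbfa2t2 (2.37 ± 0.107 TPM). Runx2 (0.790 ± 0.166 TPM), Runx3 (mean 0.277 TPM) and Cbfa2t3 (mean 0.0733 TPM) were under 1 TPM, and Runx1t1 had 0, 1 and 0 counts. Runx1 exceeded Runx2 by 3.97 ± 0.27 and Runx3 by 5.51 ± 0.33 in log2. Its ratio to Cbfb was -0.33 ± 0.05, and 0.59 on CPM, where length is not corrected.

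All 3 other MiT-TFE genes were detected, and Tfec was not the highest of the family. Tfe3 stood at 34.2 ± 1.63, Mitf at 16.7 ± 3.74 and Tfeb at 5.65 ± 1.01 TPM. The log2 ratio of Tfec was -0.45, -0.32 and -1.30 to Tfe3, and 0.26, 0.96 and -0.11 to Mitf, both within their spread, and its mean ratio to Mitf was -0.93 on CPM. It was 1.93 ± 0.71 to Tfeb, beyond it. Of the 38 genes tested on these 5 family lists none varied beyond the trend in edgeR or with DESeq2's trend. Beside 1.96 and 1.83% of all genes, none is not unusual for lists of this size. In edgeR 3 of the 38 had an unadjusted p under 0.05. Among 24 other haematopoietic factors 14 were detected, led by Id2 (301, 190.6 and 166 TPM), Zeb2 (142 ± 19.4 TPM) and Lmo2 (45.8 ± 4.99 TPM). Irf8, a DNA-binding partner of PU.1, was at 35.63 ± 4.199 TPM, and the log2 ratio of Spi1 to it was 1.63 ± 0.18. Pax5, Gata1 and Ebf1, factors of B cells and red cells, averaged 0.0167, 0.00667 and 0.00333 TPM.

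**Figure D4:**
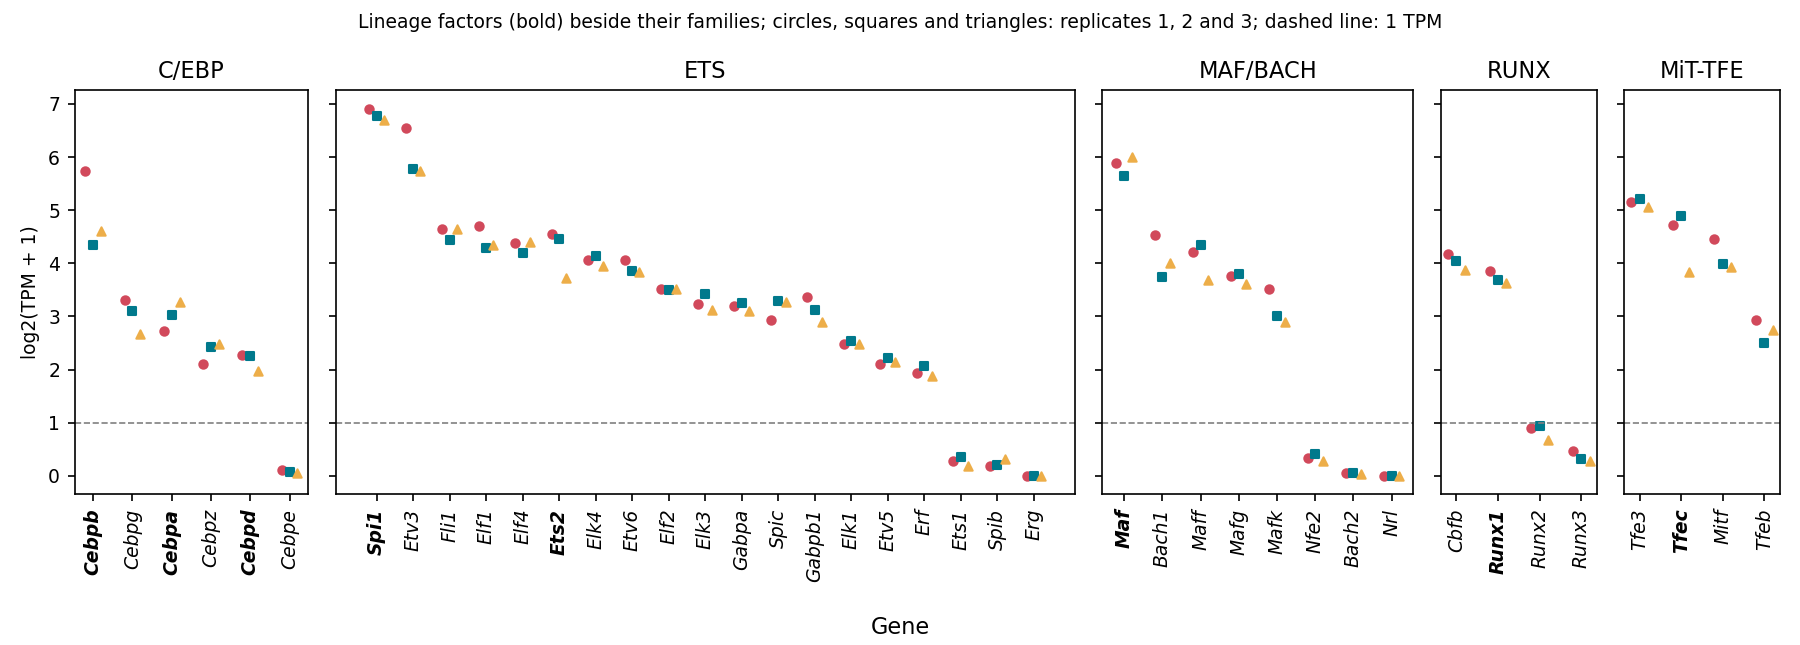
Values of log2(TPM + 1) of the lineage factors (bold) and their relatives in replicates 1, 2 and 3 (circles, squares, triangles), by family and from high to low, with 1 TPM dashed. Spi1 and Maf are the highest of the genes drawn in their panels, Etv3 lies above Ets2, and Tfe3 above Tfec. Cebpz is drawn with the C/EBP genes by name but has no leucine zipper of that family.

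The transcript tables resolved 29 annotated transcripts of the 8 genes, and the same transcript led in both tables for all 8. Cebpb has 1 transcript of 1 exon (1504 nt), so its protein forms, which arise by choice of start codon, could not be separated in RNA. Ets2-201 (10 exons, 3890 nt) took 98.8 to 99.3%, Tfec-201 (7 exons, 1787 nt) 95.1 to 98.4% and Cebpd-201 (3746 nt) 97.8 to 100% of the gene's TPM. Annotated retained-intron transcripts took 0.920 ± 0.279% for Ets2, 0.670 ± 0.493% for Tfec and 0.383 ± 0.170% for Runx1.

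Runx1 has a distal and a proximal promoter that give proteins with different N-termini, and RNA from both was present. Transcripts from the distal start (first base 92826149) took 58.3, 57.8 and 55.8% of Runx1 TPM (mean 57.3 ± 1.32). Those from the proximal start, 128821 nt downstream (first base 92697328), took 31.8, 30.6 and 27.6% (mean 30.01 ± 2.14). The distal share was larger than that of the proximal start alone in 3 of 3 libraries. First bases within 1000 nt of each other were taken as 1 start. The third start, first base 92696125, was kept apart from the proximal one by this limit and took 12.7 ± 3.46%. By counts the shares were 65.5 ± 0.920, 29.7 ± 2.15 and 4.82 ± 1.24%, and 50.8 ± 3.13, 28.6 ± 0.728 and 20.7 ± 3.85% of TPM in the second transcript table. Runx1-201, the main distal transcript, took 51.6, 52.5 and 53.1%, and Runx1-202, the main proximal one, 31.6, 30.03 and 27.3%. The distal transcript Runx1-204 (336 nt) reached 11.7 ± 5.70% in the second table but 5.55, 4.39 and 1.03% in the first, where it rested on 4.77, 7.43 and 1.14 counts.

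Spi1 had a minor share from an annotated start 13706 nt upstream of the first base of Spi1-201. The 2 short transcripts of this start, Spi1-202 (613 nt) and Spi1-204 (544 nt), took 21.8, 20.7 and 23.2% of Spi1 TPM (mean 21.9 ± 1.26) but 5.58, 5.46 and 6.06% of its counts. The share was alike in the 3 libraries and differed by measure of abundance. In the second table it was 29.6 ± 0.739%. Spi1-201 (5 exons, 2034 nt) took 72.3, 73.7 and 72.0% in the first table.

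Maf-202, the 6360-nt form of 1 exon, took 80.4, 78.4 and 83.2%, and Maf-201, which is spliced over 3 exons, 19.6, 21.6 and 16.8%. The forms kept nearly the same proportion in every library. The Cebpa forms were less even. Cebpa-201, of 1 exon, took 83.9, 58.1 and 86.8%, and Cebpa-202, in which 475 nt (chr7:35119772-35120246) are removed as an intron, 16.1, 41.9 and 13.2%. Replicate 2 stood apart, with 685 of its counts assigned to Cebpa-202 beside 109 and 194 in replicates 1 and 3. The second table had the same order at a lower level, 5.44, 29.2 and 5.13%. Gene-level Cebpa in replicate 2 lay between the other two libraries.

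**Figure D5:**
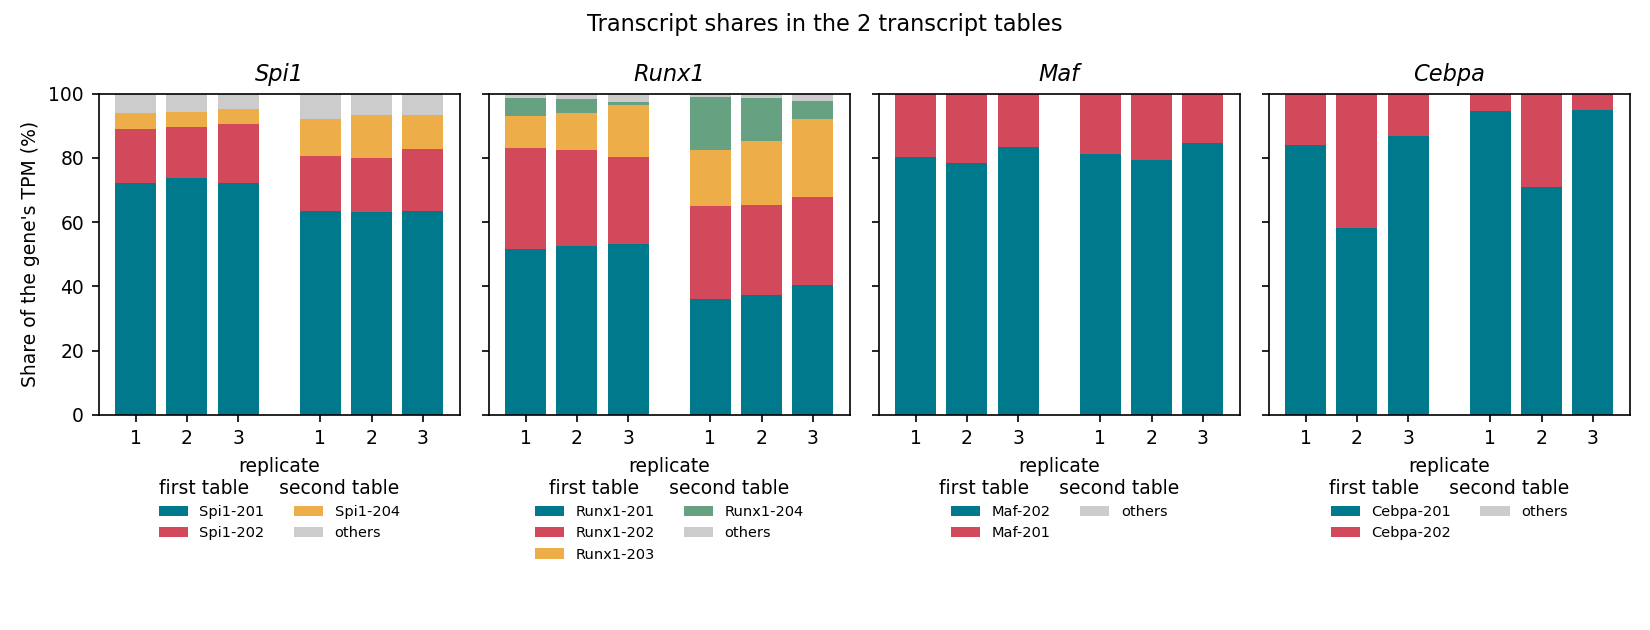
Share of each gene's TPM (percent, stacked bars) taken by the transcripts of Spi1, Runx1, Maf and Cebpa in replicates 1, 2 and 3, for the first (left) and second (right) transcript table. Cebpa-202 reaches 41.9% in replicate 2 of the first table, and Runx1-203 and Runx1-204 take larger shares in the second table than in the first.

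Some of the genes overlap others on the opposite strand, and no source used here says whether counting used strand. Tmem189 shares 312 nt with Cebpb (20.7% of its exonic bases) and stood at 36.8, 33.7 and 29.9 TPM, without the Cebpb pattern. Gm15655, antisense to 440 nt of Maf (5.34%), stood at 19.6, 5.12 and 30.8 TPM, lowest in replicate 2 as Maf was. Spidr shares 562 nt with Cebpd (15%) and was steady at 2.87, 2.90 and 2.94 TPM. Whether reads in these stretches were assigned by strand is unknown, and their part in the levels was not tested.

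Known target genes of the factors were read from lists, and membership does not show that a factor acted on them here. All 18 PU.1 targets were detected, with a median of 103.3 TPM, led by Lyz2 (3262 ± 426 TPM), Ctss (1351 ± 193 TPM) and Cd68 (642 ± 93.1 TPM). The lowest were Mrc1 (24.02 ± 6.03 TPM), Tlr4 (20.7 ± 4.87 TPM) and Btk (18.8 ± 0.773 TPM). In the main edgeR fit none of the 18 varied beyond the trend, beside 1.96% of all genes, and 3 had an unadjusted p under 0.05. At that share, none is not unusual for a list of this size. Of the 18, 1 was called without scaling, without the filter and with a common dispersion, and 2 with DESeq2's trend and without replicate 1. Of 9 MAF targets 7 were detected, led by the complement genes C1qb (981 ± 42.7 TPM), C1qc (731 ± 29.2 TPM) and C1qa (237 ± 9.44 TPM). Il10 (8.13, 5.52 and 2.77 TPM) varied beyond the trend (edgeR adjusted p = 0.0165, 0.0148 to 0.9997 over the alternatives). It was 1 of 8 tested, beside 1.96% of all genes. Il10 was lowest in the library where Maf was highest, but Maf itself did not vary beyond the trend. F13a1 (mean 0.587 TPM) and Cd163 (mean 0.0400 TPM) were under 1 TPM.

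C/EBP targets were less even. Of 14 genes 13 were detected, and 7 of 13 tested varied beyond the trend, namely Saa3, Ccl3, Cxcl1, Ptgs2, Il6, Lcn2 and Nos2, beside 1.96% of all genes. The number was 9 with DESeq2's trend and 8 of 14 tested without the filter, and 7, 4 and 2 without replicates 1, 2 and 3. This list holds Lipid A response genes that other factors also drive, and several were known from earlier work on these data to vary. Replicate 1, the high library for Cebpb, was highest for 6 of the 7, and Saa3, at 3676, 2261 and 6316 TPM, was highest in replicate 3. The lowest library was replicate 3 for 5 of the 7 and replicate 2, the low library for Cebpb, for Saa3 and Lcn2. Lcn2 (24.6, 9.89 and 15.1 TPM) had the order of Cebpb. Ccl3 (1407, 708 and 532 TPM), Ptgs2 (66.8, 45.4 and 21.4 TPM) and Nos2 (12.2, 5.70 and 2.90 TPM) were highest in replicate 1 and lowest in replicate 3. Il6 (28.6, 17.0 and 5.85 TPM) and Cxcl1 (64.6, 56.6 and 13.0 TPM) were lowest in replicate 3, as Tfec and Ets2 were. Il1b, at 280, 394 and 169 TPM, had the library order of Tfec and did not pass (edgeR adjusted p = 0.128, 0.00499 to 0.9999 over the alternatives). Ptges (5.95 ± 0.670 TPM) and Chil3 (2.71 ± 0.841 TPM) were low, and Arg1 had 0, 2 and 1 counts.

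Of 8 RUNX1 or ETS2 targets 7 were detected. Csf1r (146 ± 12.2 TPM) was the highest and Bcl2l1 (33.0 ± 5.27 TPM) came after Spi1, itself a RUNX1 target. Mir155hg, the host of the microRNA miR-155, was at 2.57, 3.09 and 6.43 TPM and varied beyond the trend (edgeR adjusted p = 0.0114, 0.0045 to 0.9997 over the alternatives). It was the 1 of 8 tested that did, beside 1.96% of all genes. Mir155hg was high in replicate 3, where Ets2 was low, but Ets2 itself did not vary beyond the trend. Ccnd1 (12.6 ± 2.47 TPM) was detected, and Mmp9, a matrix protease, averaged 0.160 TPM.

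The genes nearest in pattern were found among 5853 protein-coding genes of at least 5 TPM, by the root mean square distance of log2(TPM + 1) values centred on their mean over the 3 libraries. With 3 points a close match is easily had, and for Spi1 860 genes lay within 0.05, for Runx1 802 and for Cebpd 539. Spi1 had Ubac2 and Arl11, Runx1 Tbl1x and Klc1, and Cebpd Esyt2 and Fau as nearest genes. Maf had 43 genes within 0.05, the nearest being Jade2 (19.5, 16.1 and 21.1 TPM) and Klf10, and Ets2 had 21, the nearest being Emp1 (13.7, 12.7 and 7.20 TPM) and Rcan1 (7.21, 6.65 and 3.54 TPM). Cebpa had 11, with Camk1d (4.31, 5.50 and 6.57 TPM) and Adgre1 (539, 652 and 764 TPM), the gene of the macrophage antigen F4/80, nearest. Tfec had 2, a replication-dependent histone gene, Hist1h4f (8.89, 10.3 and 4.46 TPM), and Cd83 (162, 179 and 91.6 TPM), a surface protein of activated antigen-presenting cells. Cebpb had none within 0.05. Its nearest were the chemokine gene Ccl12 (244, 85.2 and 100.1 TPM, distance 0.0671) and Bmt2 (38.2, 15.3 and 15.9 TPM, distance 0.0940). With TPM rescaled over nuclear protein-coding genes, Jade2, Camk1d, Adgre1, Ccl12, Hist1h4f, Cd83, Emp1 and Tbl1x were again among the 2 nearest of their genes, while both nearest genes of Spi1 and Cebpd were others.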

How the data were processed

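Gene and transcript tables of 3 cytosolic libraries (build mm10, GENCODE M21, per the deposited notes) were used. No source used here names the programs, and the column sets are those that RSEM and kallisto write. Expected counts (gene table, first transcript table) and estimated counts (second transcript table) are deposited without normalization, per the file headers. TPM were computed by the authors and were used as deposited. The percent values are the share of a gene's TPM per transcript, per the file headers. The posterior SD of the deposited counts was at most 0.406% of a member's count.

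The members and lists were chosen with earlier results of these data known. Variability was tested on rounded expected counts in edgeR 4.0.16 (R 4.3.3): TMM, filterByExpr, trended dispersion, an intercept fit, the upper tail of the residual deviance on 2 degrees of freedom, and Benjamini-Hochberg adjustment over all genes at 0.05. The test was also run on data simulated at the fitted trend. That is the model the test assumes, so the run does not show its error rate on real counts. DESeq2 1.42.0 was an alternative. Log2 ratios used TPM without a pseudocount. For 0 counts the limit is 3 counts, which covers counting error only. The genes named were the 8 members, transcripts at 10% or more, the 3 highest and up to 3 lowest of each list, and the 2 nearest in pattern. Other genes (Irf8, Klf4, Ddit3, Runx2, Lcn2, Cxcl1, Ptgs2, Il6, Nos2, genes overlapping a member, transcripts under 10%) were named after their values were seen. Ddit3 was left out of its list because 2 gene entries carry the symbol. Promoters are from RefSeq (GRCm38.p6), and exonic bases were removed. The values of 1 gene of the lists are not reported here. The alternatives for the upstream start shares (4 values) and the rescaled second table for the 8 members were chosen after seeing the data.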

Additional observations from a re-analysis of the deposited data

How the results depend on the processing

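Of 8 lineage factors, 2 varied beyond the trend in the main analysis. The number was 2 with DESeq2 size factors, without scaling beyond library totals and without the filter, 1 with a common dispersion, with DESeq2's trend and with the counts of the second transcript table, and 0 to 1 when 1 replicate was left out. The log2 ratio of Spi1 to Maf became -1.03 and that of Runx1 to Cbfb 0.59 on CPM, which is not corrected for length, and Tfec to Ets2 (-0.98) and Tfec to Mitf (-0.93), which lay within their spread on TPM, also changed sign there. No other of the 23 ratios changed sign in 138 recomputed values. All 8 genes stayed detected under the alternatives except at 5 TPM, where Cebpd was left out and 7 remained. Besides that limit only the second transcript table could have lost a gene. The lower limit of 0.5 TPM, the rescaling and leaving out a library could not. Of 56 recomputed levels 17 moved by more than 1 SD between libraries, and of 32 leading transcript shares 3 did. Leaving out 1 of 3 libraries cannot move a mean that far. The first transcript table repeats the TPM of the gene table, and rescaling changes the unit. These counts are therefore no measure of robustness. Rescaling over nuclear protein-coding genes multiplied levels by 3.33 ± 0.285, after which the median of detected protein-coding genes deviated by -0.09 to 0.06 in log2 between libraries, against -0.08 to 0.05 before. Detection of other haematopoietic factors fell from 14 to 9 at 5 TPM.

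No paired analysis was possible because all libraries form 1 group. With 3 libraries from 1 donor record, leaving out 1 library ended the call of Cebpb (replicate 1 or 2) and of Tfec (replicate 2 or 3). Transcript shares of short transcripts rest on few counts and differ between the tables, so they bear only on large differences. The shares of the upstream starts of Spi1 and Runx1 moved by more than 1 SD on counts and in the second table.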

Other observations

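Ddit3, whose protein CHOP pairs with C/EBP proteins and blocks their usual binding, is carried by 2 gene entries. One entry stood at 139, 113 and 86.3 TPM in replicates 1, 2 and 3, above Cebpb in each library, and the other had 0 TPM in all 3. Klf4, a Krüppel-like factor of monocytes, measured 1.59, 0.880 and 0.400 TPM and varied beyond the trend (edgeR adjusted p = 0.011, 0.000723 to 0.919 over the alternatives). It was the 1 of 19 tested genes on the list of other haematopoietic factors that did, beside 1.96% of all genes.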
